A study of Arabidopsis thaliana with 8 samples.

Results

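Transcript levels were compared between whole Arabidopsis thaliana seedlings of RNAi line 12, whose genotype is labelled RLI2 knockdown #12, and wild-type seedlings (WT, Col-0). Each group had 3 RNA-seq libraries. Both groups had 3 days of cold at 4 °C, followed by 7 days of growth at 22 °C on Murashige and Skoog medium in long days (16 h light, 8 h dark). No treatment is labelled, and the sources used here do not name the RNAi construct, its promoter or the number of transformants behind line 12. A second knockdown, line 5, grown the same way and present in 2 libraries, serves only as context. The genes described are the 19223 of 32833 in the table that reached 1 FPKM (fragments scaled to gene length and to library size) in at least 2 of the 6 libraries. Values in every sentence are FPKM unless a log2 change is named, which is line 12 less WT on the scale of log2(FPKM + 1) and understates the change of low genes. A gene is called when its p-value, adjusted by Benjamini and Hochberg over all 19223 genes, is under 0.05 in limma.

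RLI2, listed as ABCE2, encodes a member of the ABCE family of ATPases. These soluble proteins, which sit on the ribosome and carry iron-sulfur clusters, split it into its subunits after translation ends or stalls, so that the subunits can start again on another mRNA. In plants the family is known for effects on leaf shape, and RLI2 itself was described as a suppressor of RNA silencing.

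Depth read back from the values was 42300000 to 49030000 fragments, and each of the 6 libraries had 18218 to 18565 genes at or above 1 FPKM. The labels do not call the replicates separate cultures; p-values therefore cover the spread seen here, which may be technical. Ribosomal RNA genes took 0.192% to 0.412% of the fragments in WT. In line 12 the share was 0.161% in replicate 1, 2.34% in replicate 2 and 7.60% in replicate 3, and its part in the results was not tested. WT replicate 1 held most of the seed storage signal, with a summed level of 36.4 FPKM over 12 storage genes against 0.905 to 3.39 in the other 5 libraries. In whole seedlings, fewer cells of a type and less RNA per cell cannot be told apart.

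The targeted transcript had no overlap between the groups and was lower in line 12. ABCE2 (locus AT4G19210) lies on the plus strand of chromosome 4, from 10501123 to 10505217 in TAIR10, and has 13 exons. It stood at 57.5, 57.8 and 58.6 FPKM in WT and 26.7, 26.4 and 23.3 in line 12. The change was -1.16 on the log2 scale, with an SE of 0.064 and an adjusted p of 2.89e-05, and line 12 kept 43.97% of the WT level. An exact two-sided permutation test on the 6 values gave p = 0.1, the smallest that the 20 splits of 3 against 3 allow. The relatives ABCE1 and ABCE3 lay under the filter, with at most 0.435 FPKM for ABCE1 and at most 0.173 FPKM for ABCE3 in these 6 libraries. Among 38074 gene models of the RefSeq annotation of TAIR10.1, ABCE1 was the only other gene that shared a run of at least 21 bases with ABCE2, the length of many small interfering RNAs. The longest shared run has 41 bases and is shown because it is the longest stretch at which small RNAs against one gene would match the other. It lies in the sense direction of both genes, on chromosomes 4 and 3. The sources used here do not name the fragment in the construct, so whether it holds this run is not known.
ABCE2 and ABCE1, shared run: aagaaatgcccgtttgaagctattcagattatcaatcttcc

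The gene next to ABCE2 on the chromosome also differed. AT4G19200, which encodes a proline-rich family protein, stood at 50.5, 53.4 and 50.4 FPKM in WT and 166, 156 and 133 in line 12 (log2 1.53, SE 0.086, adjusted p = 3.13e-05). The same gene stood at 188 and 161 in line 5 (line 12 less line 5, log2 -0.20, adjusted p = 0.212). CYP707A1, which starts the breakdown of abscisic acid and is the next tested gene on the other side, stood at 2.604, 2.82 and 1.98 FPKM in WT and 3.33, 2.77 and 3.59 in line 12 (adjusted p = 0.0967). Read sharing between neighbours was not tested, since the sources used here do not name the strand setting.

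Line 12 differed from WT across more than 1 in 2 tested genes, mostly by small amounts. Of the 19223 genes, 10563 were called (54.9%), 5333 higher (27.7%) and 5230 lower (27.2%). The shares higher and lower are the background for the counts of every gene list given below. The lists were chosen with earlier results of these data known. Their counts are therefore descriptions, and no list was tested against the background. A change of at least 2-fold was found for 2143 called genes (11.1%), of which 1259 were higher (6.55%) and 884 lower (4.60%). At least 4-fold changes were found for 286 higher and 107 lower genes, and at least 8-fold changes for 61 and 13. The median change of all tested genes was -0.0045, and the median absolute change of called genes was 0.55. The median spread of a gene within a group, as an SD of log2 values, was 0.094 in WT and 0.11 in line 12. In 12365 genes (64.3%) the 3 line 12 values lay wholly above or wholly below the 3 WT values. When the fit asked for evidence of a change beyond 2-fold, 764 genes passed. Without line 12 replicates 2 and 3, the libraries with the most ribosomal RNA, 7053 genes were called, with the 1 remaining line 12 library assumed to vary like WT.

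**Figure D1:**
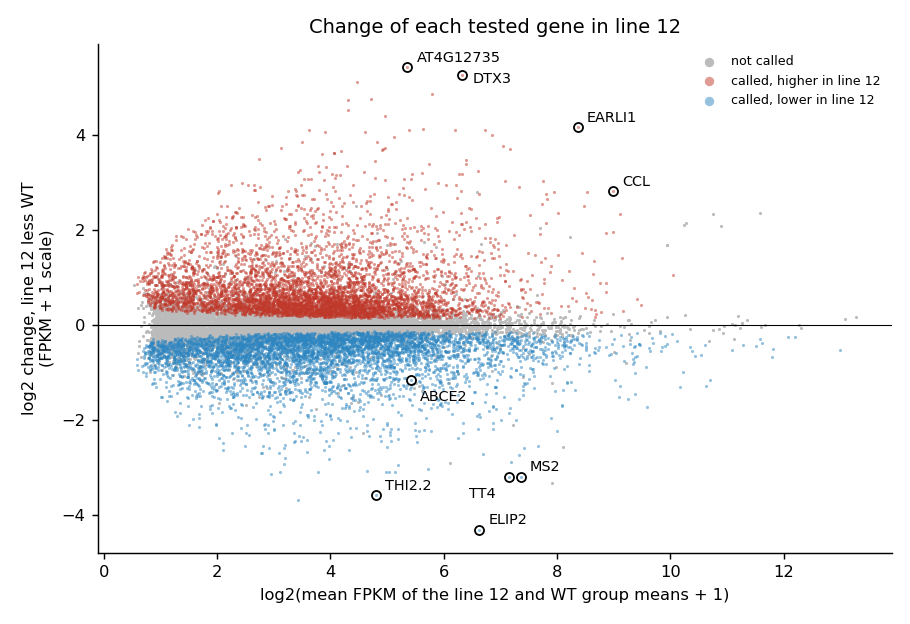
Each point is 1 of the 19223 tested genes, placed by its mean level in log2(FPKM + 1) on the x axis and its log2 change in line 12 on the y axis. Red and blue points are the 5333 and 5230 called genes, grey points are not called, and circles mark named genes, among them ABCE2 at -1.16, with rises that reach further (5.42) than falls (-4.32).

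The largest rises included detoxification and stress genes, most of them low in WT. AT4G12735, a gene with no described function in the table, stood at 0.829, 0.629 and 0.911 FPKM in WT and 48.4, 90.3 and 99.1 in line 12 (log2 5.42, SE 0.26, adjusted p = 1.83e-05). DTX3 encodes a multidrug and toxin extrusion carrier of the DETOXIFICATION family. Its level was 2.94, 2.76 and 3.29 FPKM in WT and 109, 179 and 176 in line 12 (log2 5.25, SE 0.19, adjusted p = 1.16e-05). DTX4, of the same family, stood at 0.313, 0.119 and 0.207 FPKM in WT and 26.4, 47.7 and 52.8 in line 12 (log2 5.10, SE 0.25, adjusted p = 1.98e-05). The 10 highest genes were picked among called genes whose groups did not overlap, so non-overlap is not a result here. In AT4G12735, DTX3 and DTX4 the lowest line 12 value lay many times above the highest WT value. AT2G18193, an AAA-ATPase, stood at 2.02, 3.29 and 2.62 FPKM in WT and 74.01, 115 and 131 in line 12 (log2 4.86). CML38, a calmodulin-like calcium sensor known from wounding and low oxygen, stood at 0.5200, 0.637 and 0.8099 FPKM in WT and 38.3, 41.8 and 31.6 in line 12 (log2 4.52). EARLI1 encodes a lipid transfer protein of the cell wall. It stood at 30.7, 35.5 and 30.9 FPKM in WT and 376, 829 and 668 in line 12 (log2 4.16), with its lowest line 12 value in replicate 1. DIC2, a dicarboxylate carrier of the inner mitochondrial membrane, stood at 2.78, 3.32 and 8.18 FPKM in WT and 97.7, 106 and 73.3 in line 12 (log2 4.12). The 10 highest changes above the median level also held AT5G13210, AT5G24640 and AT2G41730, at 4.74, 4.73 and 4.402.

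Line 12 replicate 1 had the weakest rise in most of these leading genes. It was the lowest of the 3 line 12 libraries in 8 of the 10 highest genes, and replicate 3 was the lowest in the other 2. Over all 1259 genes at least 2-fold higher, replicate 1 was the lowest in 541, replicate 2 in 196 and replicate 3 in 522. Replicate 1 is also the line 12 library with the least ribosomal RNA, and the part of either in the size of these rises was not tested.

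Among called genes above the median level whose groups did not overlap, the 10 largest falls were those of ELIP2, THI2.2, MS2, TT4, AT5G38020, ELIP1, CHIL, UGT78D1, UGT89C1 and AT5G37990. ELIP2 encodes an early light-induced protein, a chlorophyll-binding protein made under light stress. It stood at 178, 190.4 and 193 FPKM in WT and 9.08, 7.73 and 8.57 in line 12 (log2 -4.32, SE 0.069, adjusted p = 1.57e-06). ELIP1, its close relative, stood at 55.8, 62.5 and 54.9 FPKM in WT and 5.09, 5.05 and 7.62 in line 12 (log2 -3.10). THI2.2, a thionin of the antimicrobial peptide family, stood at 47.2, 42.3 and 62.3 FPKM in WT and 3.095, 2.72 and 3.94 in line 12 (log2 -3.59, SE 0.16, adjusted p = 1.65e-05). AT5G38020 and AT5G37990 encode methyltransferases that the table describes as using salicylate or related substrates and S-adenosylmethionine. AT5G38020 stood at 23.6, 32.5 and 14.6 FPKM in WT and 2.07, 0.662 and 2.95 in line 12 (log2 -3.11). AT5G37990 stood at 83.3, 125 and 66.4 FPKM in WT and 15.97, 3.79 and 14.9 in line 12 (log2 -3.04), lowest in line 12 replicate 2. Non-overlap of the groups was a condition for entry to these 10 genes and is not a result. Line 12 replicate 2 had the lowest value in 8 of these 10 and in 441 of the 884 genes at least 2-fold lower.

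In absolute level, the largest shifts were in abundant genes, many of them of the chloroplast. CCL, a light-regulated chloroplast protein also known for clock-controlled mRNA decay, stood at 122, 130.1 and 124 FPKM in WT and 936, 907 and 827 in line 12 (log2 2.82). LHB1B1, a chlorophyll-binding antenna protein, stood at 686, 632 and 759 FPKM in WT and 1591, 1424 and 1282 in line 12 (log2 1.05). CAT3, a catalase that removes hydrogen peroxide, stood at 237, 176 and 209 FPKM in WT and 681, 876 and 874 in line 12 (log2 1.96). AT3G15450, described in the table as an aluminum induced protein with YGL and LRDR motifs, stood at 157, 149 and 245 FPKM in WT and 1079, 771 and 909.6 in line 12 (log2 2.34). Among the largest falls in level was RBCS1A, a small subunit of Rubisco, at 9696, 9280.0 and 9910.0 FPKM in WT and 6774, 6873 and 6285 in line 12 (log2 -0.54). RCA, the activase of Rubisco, stood at 4398, 4285 and 4355 FPKM in WT and 2773, 2568 and 2791 in line 12 (log2 -0.68). The metallothionein MT2B stood at 2369, 2239 and 2156 FPKM in WT and 890.0, 961 and 921 in line 12 (log2 -1.28), and FBA2, a plastid aldolase, at 2286, 2311 and 2331 FPKM in WT and 1076, 999.7 and 1030.0 in line 12 (log2 -1.16). In all of these genes the line 12 values lay wholly on one side of the WT values.

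Genes of the methionine and S-adenosylmethionine cycle, which makes the methyl donor of the cell and recycles what is left after transfer, fell as a group. All 23 members passed the filter, 15 were lower and 2 higher (background 27.2% and 27.7% of tested genes), and 10 were at least 2-fold lower; the median was -0.85 against -0.0045 over all tested genes. Methionine is made from homocysteine by methionine synthase. The cytosolic MS2 stood at 299.8, 302 and 285 FPKM in WT and 30.2, 32.7 and 30.6 in line 12 (log2 -3.21, SE 0.054, adjusted p = 1.57e-06), while the more abundant cytosolic MS1 stood at 755, 802 and 787 FPKM in WT and 303, 324 and 336 in line 12 (log2 -1.28). MS3, the plastid enzyme, stood at 5.07, 5.35 and 5.55 FPKM in WT and 4.96, 5.26 and 4.92 in line 12 (adjusted p = 0.461), and its groups overlapped. The methylfolate that feeds this step comes from methylenetetrahydrofolate reductase. MTHFR1 stood at 192, 190.0 and 207 FPKM in WT and 67.9, 67.7 and 67.7 in line 12 (log2 -1.52), and MTHFR2 at 114, 113 and 112 FPKM in WT and 37.8, 34.2 and 35.8 in line 12 (log2 -1.62).

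The steps that activate methionine and clear the product moved the same way. MAT3, 1 of 4 S-adenosylmethionine synthetases, stood at 223, 230.4 and 205 FPKM in WT and 60.1, 63.5 and 70.1 in line 12 (log2 -1.75), and the others changed by -1.24 (SAM1), -0.73 (SAM2) and -0.69 (MAT4). SAHH2, a hydrolase of S-adenosylhomocysteine, stood at 253, 259 and 253 FPKM in WT and 33.3, 35.1 and 32.5 in line 12 (log2 -2.89, SE 0.049, adjusted p = 1.57e-06). Its relative SAHH1 stood at 468, 500.3 and 492 FPKM in WT and 261, 271 and 273 in line 12 (log2 -0.85). ADK1 and ADK2, adenosine kinases that remove the adenosine released in that step, changed by -1.11 and -1.20. CGS1, which commits carbon to methionine in the plastid, stood at 257, 240.5 and 251 FPKM in WT and 114, 113 and 112 in line 12 (log2 -1.14). No called member of the salvage and polyamine branches was lower. MTK, the kinase of methylthioribose, rose from 14.1, 13.6 and 11.7 to 17.2, 18.9 and 18.8 (log2 0.45, adjusted p = 0.00401), and the decarboxylase SAMDC1 stood at 774, 798 and 806 FPKM in WT and 816, 831 and 829 in line 12 (adjusted p = 0.369). Within isoform pairs the fall was unequal, with MS2 at 10.5% of WT and MS1 at 41.1%, SAHH2 at 13.2% and SAHH1 at 55.2%. These isoforms are close in sequence, and the authors' counting could have split reads between them.

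**Figure D2:**
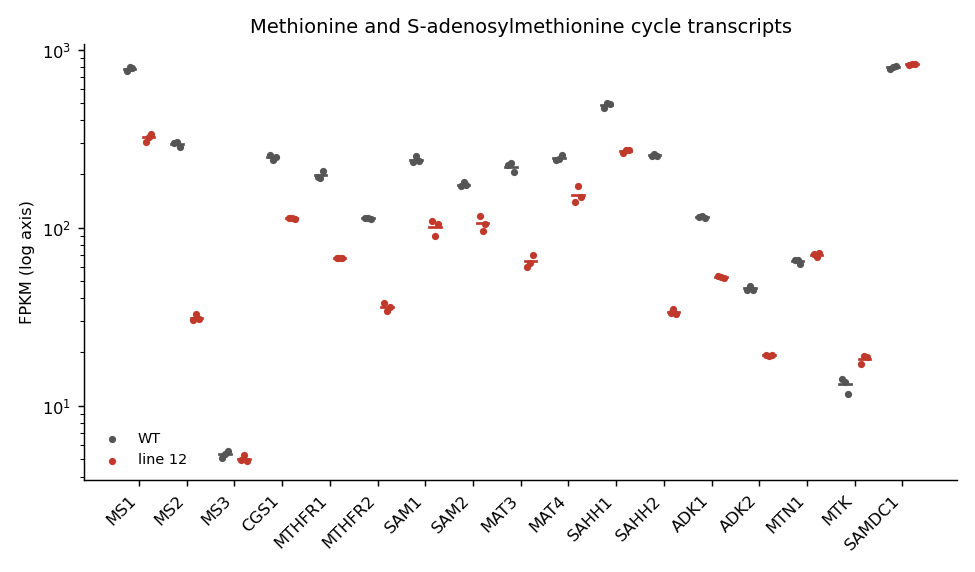
Levels in FPKM on a log axis are shown for 17 transcripts of the methionine cycle, with 1 point per library and a bar at the mean of the 3 libraries of WT (grey) or line 12 (red). MS2 and SAHH2 show the widest gaps, to 10.5% and 13.2% of WT, while MS3, MTN1 and SAMDC1 lie close in both groups.

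Detoxification genes rose as a group. Of 27 members tested, 20 were higher and 1 lower (background 27.7% and 27.2%), with a median of 1.38; without line 12 replicates 2 and 3 the counts were 16 and 0. CYP81D8, a cytochrome P450 that answers many chemical stresses, stood at 2.596, 3.16 and 3.71 FPKM in WT and 52.1, 82.05 and 58.6 in line 12 (log2 3.96). UGT74E2, a glucosyltransferase acting on indole-3-butyric acid, stood at 1.91, 3.08 and 2.37 FPKM in WT and 24.9, 38.7 and 40.4 in line 12 (log2 3.35). GSTU24, a tau-class glutathione transferase, stood at 9.404, 11.6 and 8.98 FPKM in WT and 42.9, 72.8 and 62.4 in line 12 (log2 2.43). ABCG40, a plasma membrane carrier of abscisic acid, was the 1 member that fell, at 0.918, 4.08 and 5.02 FPKM in WT and 0.324, 1.03 and 0.614 in line 12 (log2 -1.25, adjusted p = 0.0446). Its groups overlapped, and it was not called without any one of WT replicates 2 and 3 or the 3 line 12 replicates. Not every glutathione transferase moved, since GSTU8 stood at 34.3, 40.3 and 28.9 FPKM in WT and 27.3, 28.02 and 33.2 in line 12 (adjusted p = 0.211) with overlapping groups.

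The mitochondrial retrograde genes, nuclear genes that answer when mitochondrial electron transport is disturbed, moved with them. Of 17 tested, 14 were higher and 1 lower, with a median of 2.005. UPOX, a mitochondrial protein raised under oxidative stress, stood at 2.55, 3.304 and 4.76 FPKM in WT and 54.3, 93.4 and 85.5 in line 12 (log2 4.11, SE 0.25, adjusted p = 4.09e-05). BCS1, an AAA-ATPase of the outer mitochondrial membrane, stood at 0.9396, 1.598 and 0.837 FPKM in WT and 15.7, 32.9 and 28.3 in line 12 (log2 3.60). AOX1A, the alternative oxidase that bypasses part of the respiratory chain, stood at 25.2, 25.6 and 23.1 FPKM in WT and 98.9, 145 and 149 in line 12 (log2 2.34). NDB4, an alternative NADH dehydrogenase, stood at 0.186, 0.0786 and 0.0456 FPKM in WT and 2.66, 3.67 and 4.07 in line 12 (log2 2.005). NAC017, the membrane-bound factor placed at the top of this response, stood at 23.7, 23.2 and 23.2 FPKM in WT and 24.1, 25.4 and 24.3 in line 12 (adjusted p = 0.275), while its relative NAC013 stood at 8.73, 9.399 and 8.76 FPKM in WT and 16.8, 23.7 and 27.6 in line 12 (log2 1.22). NDA1, an alternative dehydrogenase of the inner membrane that is also controlled by light, was the member that fell, at 92.8, 91.4 and 95.1 FPKM in WT and 44.04, 40.3 and 41.1 in line 12 (log2 -1.14). The classical respiratory chain did not move in this way. Its shares of calls lay near the 27.7% higher and 27.2% lower of all tested genes. Of 59 nuclear subunits tested, 15 were higher and 17 lower, with a median of -0.04, which was 0.029 when libraries were rescaled to nuclear genes other than ribosomal RNA and 0.011 without line 12 replicate 1. Its higher count was 8 or 9 without any 1 library other than line 12 replicate 1, and its lower count was 11 without WT replicate 2. Without line 12 replicates 2 and 3 together, 4 were higher and 10 lower.

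The mitochondrial dysfunction motif, to which NAC013 and NAC017 bind, was looked for upstream of these genes. It was searched as CTTG, any 5 bases and then CANG, on both strands of the 250 bases before each gene start, in 18464 protein-coding tested genes (RefSeq, TAIR10.1). It was present in 1.40% of all windows, in 3.86% of the 1218 windows of genes at least 2-fold higher and in 1.26% of the 872 windows of genes at least 2-fold lower. Among retrograde genes it was present upstream of NDB2, NDA1, UPOX, NAC017 and HSP23.5, so it was found both beside genes that rose and beside NDA1, which fell. Among detoxification genes it was present upstream of DTX3, UGT73C6, CYP81D8 and CYP710A1. The windows below are of genes that rose, show 80 bases in the direction of transcription and have the match in capitals.
UPOX (chr2:9254293-9254372, plus strand): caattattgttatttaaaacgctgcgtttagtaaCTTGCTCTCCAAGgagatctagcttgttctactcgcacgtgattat
DTX3 (chr2:1339579-1339658, minus strand): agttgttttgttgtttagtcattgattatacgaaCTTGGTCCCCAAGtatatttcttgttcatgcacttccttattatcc
CYP81D8 (chr4:17571838-17571917, minus strand): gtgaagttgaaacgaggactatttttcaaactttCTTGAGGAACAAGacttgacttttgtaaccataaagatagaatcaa
UGT73C6 (chr2:15421878-15421957, minus strand): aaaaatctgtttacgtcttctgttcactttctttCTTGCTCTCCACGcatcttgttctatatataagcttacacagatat

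Flavonoid synthesis, which turns phenylalanine-derived precursors into sunscreen pigments, was lower at nearly every step. Of 18 members tested, 15 were lower and 0 higher at an adjusted p under 0.05 in limma, and at an unadjusted p under 0.05 the higher count was also 0; the median was -1.91. TT4, the chalcone synthase that starts the pathway, stood at 287, 253 and 224 FPKM in WT and 28.9, 23.4 and 27.8 in line 12 (log2 -3.20, SE 0.11, adjusted p = 1.15e-05). CHIL, a chalcone isomerase-like protein, stood at 63.9, 55.2 and 48.7 FPKM in WT and 5.72, 5.33 and 5.71 in line 12 (log2 -3.10), and F3H, the flavanone hydroxylase, at 71.4, 64.3 and 54.98 FPKM in WT and 7.596, 6.63 and 7.501 in line 12 (log2 -2.96). FLS1, the flavonol synthase, stood at 37.8, 28.2 and 14.1 FPKM in WT and 2.93, 1.79 and 3.34 in line 12 (log2 -2.83). Sugar is added to flavonols by UGT78D1, at 71.7, 58.3 and 57.04 FPKM in WT and 5.95, 6.81 and 6.399 in line 12 (log2 -3.10), and UGT89C1, at 50.2, 43.6 and 36.5 FPKM in WT and 4.61, 3.02 and 5.36 in line 12 (log2 -3.08). The regulators MYB12 and MYB111 were low in both groups, and MYB111 stood at 1.69, 1.07 and 1.23 FPKM in WT and 0.218, 0.296 and 0.254 in line 12 (log2 -0.88). Late anthocyanin genes did not move alike. LDOX, the leucoanthocyanidin dioxygenase, stood at 5.59, 4.34 and 1.93 FPKM in WT and 0.567, 1.201 and 1.38 in line 12 (log2 -1.22, adjusted p = 0.0163), with no overlap. DFR, the dihydroflavonol reductase, stood at 5.75, 4.59 and 1.73 FPKM in WT and 1.59, 4.08 and 4.31 in line 12 (adjusted p = 0.722), and TT19, a glutathione transferase of pigment transport, at 5.32, 3.35 and 1.38 FPKM in WT and 2.48, 5.23 and 4.36 in line 12 (adjusted p = 0.562), with overlapping groups in both.

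Several light and ultraviolet-B regulators, among them HY5, HYH and RUP2, were lower by smaller amounts than the strongest flavonoid falls. Of 17 members of the HY5, ultraviolet-B and photoprotection list, 13 were lower and 3 higher, with a median of -0.66. This list is not made of regulators alone, and it holds ELIP1 and ELIP2, whose larger falls are given above. HY5, the bZIP factor that promotes growth in light, stood at 10.6, 11.00 and 10.7 FPKM in WT and 5.47, 5.15 and 6.55 in line 12 (log2 -0.81). Its relative HYH stood at 38.1, 34.2 and 39.9 FPKM in WT and 15.4, 14.5 and 18.96 in line 12 (log2 -1.16). BBX22, a B-box cofactor of HY5, rose and stood at 14.3, 10.6 and 14.1 FPKM in WT and 25.98, 29.4 and 29.9 in line 12 (log2 1.08). UVR8, the ultraviolet-B receptor, also rose, at 45.3, 44.1 and 41.01 FPKM in WT and 69.4, 67.4 and 70.98 in line 12 (log2 0.66). RUP2, which returns that receptor to its inactive state, stood at 15.4, 16.4 and 17.2 FPKM in WT and 7.603, 6.13 and 6.87 in line 12 (log2 -1.15). The G-box, CACGTG, is a sequence that HY5 and other bZIP and bHLH factors bind. It was present in 7.45% of all windows, in 10.6% of those of genes at least 2-fold lower and in 8.70% of those at least 2-fold higher. Upstream of flavonoid genes it was present for TT4, F3H, DFR, CHIL and MYB12, of which DFR was not called. The windows of TT4, F3H and CHIL are shown as the strongest falls among these, with the G-box in capitals.
TT4 (chr5:4488226-4488305, plus strand): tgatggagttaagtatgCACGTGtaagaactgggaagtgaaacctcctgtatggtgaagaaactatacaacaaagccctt
F3H (chr3:19024942-19025021, plus strand): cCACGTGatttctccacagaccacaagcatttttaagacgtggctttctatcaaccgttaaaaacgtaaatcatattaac
CHIL (chr5:1563182-1563261, plus strand): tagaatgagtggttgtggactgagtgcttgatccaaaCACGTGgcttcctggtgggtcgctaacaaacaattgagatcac

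Most morning clock genes were lower and every tested evening gene was higher. The growth conditions given above do not include the hour of harvest, and its part in the clock lists was not tested. The morning clock list had 9 members tested, 6 lower and 1 higher, with a median of -0.86. The afternoon and evening list had 8 tested, 8 higher and 0 lower at an adjusted p under 0.05, with no member lower at an unadjusted p under 0.05 either, and a median of 1.11. Its higher count was as low as 6 when single libraries were left out. LHY, a dawn repressor, stood at 59.1, 59.1 and 62.2 FPKM in WT and 9.56, 9.47 and 12.6 in line 12 (log2 -2.41, SE 0.11, adjusted p = 1.60e-05), and its partner CCA1 at 104, 99.4 and 100.4 FPKM in WT and 36.5, 33.2 and 38.1 in line 12 (log2 -1.47). PRR7, a repressor of the later morning, was the morning member that rose, at 32.8, 32.1 and 38.4 FPKM in WT and 84.04, 78.8 and 67.9 in line 12 (log2 1.14). PRR5, an afternoon repressor, stood at 0.4105, 0.7301 and 0.592 FPKM in WT and 9.39, 12.9 and 10.3 in line 12 (log2 2.90, SE 0.14, adjusted p = 1.76e-05). TOC1, a repressor of the evening, stood at 4.82, 5.06 and 4.57 FPKM in WT and 19.4, 15.8 and 15.5 in line 12 (log2 1.61). GI and ELF3, both of the evening, stood at 6.22, 6.87 and 5.11 FPKM in WT and 18.2, 18.6 and 18.7 in line 12 (log2 1.47) and at 6.42, 6.896 and 6.08 FPKM in WT and 15.8, 15.1 and 14.5 in line 12 (log2 1.11). LUX, the DNA-binding subunit of the evening complex, rose least, at 1.23, 1.81 and 1.67 FPKM in WT and 2.14, 2.43 and 2.17 in line 12 (log2 0.34, adjusted p = 0.0427).

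The evening element, AAAATATCT, is a sequence to which CCA1, LHY and RVE factors bind. It was present in 2.55% of all windows, in 6.73% of those of genes at least 2-fold higher and in 1.61% of those at least 2-fold lower. In the evening list it was present upstream of PRR5, TOC1, LUX and FKF1. FKF1, a blue-light receptor that marks proteins for degradation, stood at 0.109, 0.0471 and 0 FPKM in WT and 1.12, 1.53 and 1.18 in line 12 (log2 1.11), with the highest WT value at 0.109 FPKM. These 4 windows are shown as those of the list that hold the element, which is in capitals on either strand. The part of CCA1 and LHY in these rises was not tested.
PRR5 (chr5:8358690-8358769, minus strand): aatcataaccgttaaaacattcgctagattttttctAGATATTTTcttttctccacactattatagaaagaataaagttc
TOC1 (chr5:24674776-24674855, plus strand): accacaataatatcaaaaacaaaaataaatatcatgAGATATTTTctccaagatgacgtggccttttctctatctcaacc
LUX (chr3:17182953-17183032, plus strand): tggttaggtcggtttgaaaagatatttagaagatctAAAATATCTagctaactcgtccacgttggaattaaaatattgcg
FKF1 (chr1:25508417-25508496, plus strand): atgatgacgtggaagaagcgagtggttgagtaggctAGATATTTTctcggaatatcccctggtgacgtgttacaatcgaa

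**Figure D3:**
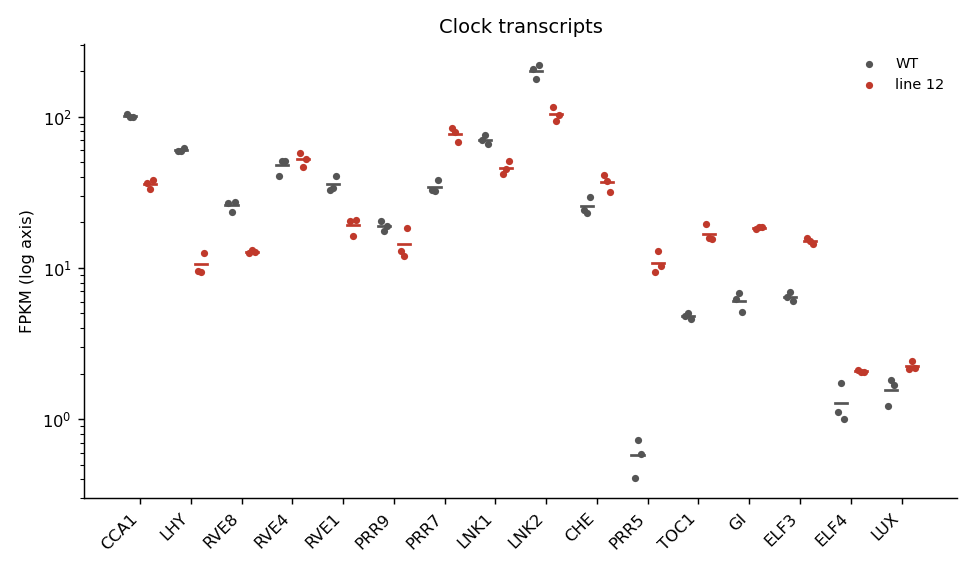
Levels in FPKM on a log axis are shown for 16 clock transcripts, from morning genes at the left to evening genes at the right, with 1 point per library and a bar at the mean of the 3 libraries of each group. CCA1 and LHY lie lower in line 12 (red) than in WT (grey), whereas PRR5, TOC1, GI and ELF3 lie higher with no overlap.

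Genes that rise in darkness and sugar starvation were higher almost throughout. Of 24 members tested, 23 were higher and 0 lower at an adjusted p under 0.05, with 0 lower at an unadjusted p under 0.05 as well, and the median was 1.83. BCAT2, an aminotransferase of branched-chain amino acids, stood at 1.07, 1.82 and 2.48 FPKM in WT and 58.8, 40.01 and 37.1 in line 12 (log2 4.06, SE 0.24, adjusted p = 3.63e-05). The breakdown of those amino acids continues through IVD, isovaleryl-CoA dehydrogenase, at 18.1, 18.3 and 19.4 FPKM in WT and 109, 88.9 and 89.04 in line 12 (log2 2.30), and MCCA, a subunit of methylcrotonyl-CoA carboxylase, at 8.900, 7.33 and 10.2 FPKM in WT and 72.5, 51.3 and 46.6 in line 12 (log2 2.54). ASN1, the asparagine synthetase of dark-treated leaves, stood at 44.1, 38.1 and 57.1 FPKM in WT and 468, 349.9 and 337 in line 12 (log2 3.03). SEN1, a marker of dark-induced senescence, stood at 43.7, 33.2 and 34.7 FPKM in WT and 308, 308 and 234 in line 12 (log2 2.89), and DRM2, a dormancy-associated protein, at 13.3, 18.9 and 27.8 FPKM in WT and 333, 216 and 246 in line 12 (log2 3.70). PRODH, the proline dehydrogenase, was the 1 member not called, at 52.4, 50.2 and 67.6 FPKM in WT and 48.8, 30.4 and 45.9 in line 12 (adjusted p = 0.0908). Starch breakdown genes, taken from the table's own annotation, moved the same way. Of 19 genes of starch catabolism, 12 were higher and 2 lower, among them GWD1, the glucan water dikinase, at 17.38, 17.9 and 14.5 FPKM in WT and 59.4, 65.8 and 56.1 in line 12 (log2 1.81), and DPE1, a plastid glucanotransferase, at 2.54, 3.11 and 2.75 FPKM in WT and 15.98, 16.6 and 15.2 in line 12 (log2 2.16).

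Transcripts for the synthesis of glucosinolates made from methionine, which are defence compounds, were lower at most steps. Of 17 genes of aliphatic glucosinolate synthesis tested, 16 were lower and 0 higher at an adjusted p under 0.05 (0 higher at an unadjusted p under 0.05), with a median of -1.83. MYB29, a regulator of the pathway, stood at 28.8, 21.5 and 23.4 FPKM in WT and 2.72, 3.85 and 2.72 in line 12 (log2 -2.64), and MYB28, its partner, at 66.02, 32.7 and 57.1 FPKM in WT and 19.2, 11.9 and 19.6 in line 12 (log2 -1.54). BCAT4, which removes the amino group of methionine at the first step of chain elongation, stood at 101, 67.05 and 63.01 FPKM in WT and 11.6, 12.4 and 14.5 in line 12 (log2 -2.47). CYP79F1 and CYP83A1, cytochrome P450 enzymes of the core structure, stood at 37.02, 21.4 and 22.7 FPKM in WT and 3.37, 4.51 and 4.38 in line 12 (log2 -2.43) and at 160.3, 122 and 121 FPKM in WT and 26.4, 26.7 and 26.1 in line 12 (log2 -2.29). IMD3, the isoform of isopropylmalate dehydrogenase that serves leucine synthesis, was the 1 member not called, at 52.98, 49.6 and 49.7 FPKM in WT and 48.5, 55.1 and 45.8 in line 12 (adjusted p = 0.763).

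Tryptophan-derived glucosinolates split into falling and rising genes. Of 14 members tested, 8 were lower and 4 higher, with a median of -0.88; the higher count was 2 without WT replicate 1. CYP79B2, which makes indole-3-acetaldoxime, stood at 57.7, 73.7 and 54.1 FPKM in WT and 18.9, 17.45 and 24.2 in line 12 (log2 -1.57), and the regulator MYB34 at 40.4, 41.2 and 31.6 FPKM in WT and 15.2, 9.41 and 13.6 in line 12 (log2 -1.51). MYB51, a regulator induced by pathogens, rose and stood at 4.48, 4.81 and 5.66 FPKM in WT and 30.9, 39.7 and 34.8 in line 12 (log2 2.59). CYP81F2, which modifies the indole ring in defence, stood at 1.56, 1.45 and 1.19 FPKM in WT and 22.7, 45.9 and 21.6 in line 12 (log2 3.61). The thalianol and marneral clusters, neighbouring genes for triterpenes made in roots, were lower in 7 of 8 members, with a median of -1.91. THAS1, the thalianol synthase, stood at 30.6, 45.2 and 24.04 FPKM in WT and 5.16, 2.12 and 6.88 in line 12 (log2 -2.64). MRN1, the marneral synthase, stood at 2.45, 7.48 and 4.98 FPKM in WT and 0.666, 0.1295 and 0.9304 in line 12 (log2 -1.86). Line 12 replicate 2 was the lowest library for both synthases, as it was for the root genes given further on, and the part of the amount of root in this list was not tested.

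Transcription factors of rapid stress responses were higher almost without exception. Of 19 tested, 18 were higher and 0 lower at an adjusted p under 0.05 (0 lower at an unadjusted p under 0.05), with a median of 2.29. CBF2, an activator of cold genes, stood at 0.196, 0.372 and 0.888 FPKM in WT and 22.2, 21.6 and 16.7 in line 12 (log2 3.85, SE 0.19, adjusted p = 2.07e-05), and CBF1 at 0, 0 and 0.0389 FPKM in WT and 7.99, 5.49 and 4.76 in line 12 (log2 2.78). ZAT10, a zinc finger repressor, stood at 2.26, 3.21 and 5.79 FPKM in WT and 46.2, 60.2 and 41.4 in line 12 (log2 3.45). WRKY33 and WRKY40, factors of the response to pathogens, stood at 11.4, 13.1 and 12.8 FPKM in WT and 100.5, 105 and 108 in line 12 (log2 2.97) and at 3.51, 3.23 and 4.27 FPKM in WT and 46.6, 34.3 and 47.5 in line 12 (log2 3.22). SZF1, a zinc finger protein of salt stress, stood at 7.07, 7.74 and 10.4 FPKM in WT and 95.5, 99.8 and 94.4 in line 12 (log2 3.39). MYB15 was the member not called, at 0.614, 0.461 and 0.471 FPKM in WT and 1.32, 0.642 and 1.603 in line 12 (adjusted p = 0.0562).

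The cold-regulated targets of CBF factors did not follow CBF1 and CBF2 as a group. For comparison, 27.7% of all tested genes were called higher and 27.2% lower. Of 9 tested, 3 were higher and 3 lower, with a median of 0.31; without line 12 replicates 2 and 3 the counts were 3 and 0. COR78, a protective protein of cold and drought also known as RD29A, stood at 36.2, 27.9 and 19.99 FPKM in WT and 13.00, 8.15 and 10.9 in line 12 (log2 -1.29, SE 0.24, adjusted p = 0.00379). KIN2, a small hydrophilic protein, stood at 94.3, 69.8 and 48.2 FPKM in WT and 30.2, 18.9 and 33.1 in line 12 (log2 -1.32), and KIN1 at 7.76, 8.39 and 3.395 FPKM in WT and 2.799, 1.17 and 2.19 in line 12 (log2 -1.26). COR413IM1, a membrane protein of the chloroplast, rose and stood at 8.32, 5.16 and 3.29 FPKM in WT and 13.96, 13.3 and 13.3 in line 12 (log2 1.21), as did COR47, a dehydrin, at 54.1, 64.2 and 53.7 FPKM in WT and 138, 95.7 and 104 in line 12 (log2 0.95). The core of the C-repeat, CCGAC, to which CBF factors bind, was present in 13.0% of all windows, in 11.6% of those at least 2-fold higher and in 12.4% of those at least 2-fold lower. The window of COR78 is shown because it holds this core, in capitals, in a gene that fell.
COR78 (chr5:21240637-21240716, plus strand): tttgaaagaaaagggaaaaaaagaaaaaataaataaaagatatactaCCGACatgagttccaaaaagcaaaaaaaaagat

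Other motifs searched had the following shares in the same 3 sets of windows. The W-box core TTGACC, bound by WRKY factors, was present in 12.2% of all windows, 17.5% of those at least 2-fold higher and 9.86% of those at least 2-fold lower. The rapid stress response element CGCGTT had shares of 2.78%, 6.40% and 1.61%, and the GATA box GATAAG had 12.5%, 17.2% and 9.29%. The site II motif TGGGCC, common upstream of ribosomal protein genes, had 17.0%, 9.61% and 9.17%. The telo-box AAACCCTAA had 2.09%, 1.31% and 0.688%, and the E2F motif GGCGGGAA had 0.531%, 0.0821% and 0.115%, the last 2 from 1 window each. These shares were not tested against each other. Each match is a description of letters in the window, and the motifs can overlap.

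Jasmonate genes were mostly higher, with exceptions among the late outputs. Of 22 tested, 15 were higher and 3 lower, with a median of 0.95. LOX4, a lipoxygenase of hormone synthesis, stood at 2.62, 2.27 and 1.89 FPKM in WT and 16.8, 17.1 and 12.5 in line 12 (log2 2.33). JAZ1, a repressor that the hormone itself induces, stood at 10.7, 12.96 and 10.9 FPKM in WT and 52.7, 31.8 and 42.2 in line 12 (log2 1.76). CYP94B3, which inactivates the active form of the hormone, stood at 0.224, 0.637 and 0.837 FPKM in WT and 9.36, 4.47 and 9.86 in line 12 (log2 2.46). The members that fell were THI2.2, given above, VSP1, a vegetative storage protein, and TAT3, a tyrosine aminotransferase. VSP1 stood at 13.1, 17.1 and 5.25 FPKM in WT and 2.09, 0.637 and 3.52 in line 12 (log2 -2.04), and TAT3 at 4.58, 10.6 and 10.4 FPKM in WT and 0.5404, 0.942 and 1.16 in line 12 (log2 -2.28).

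Salicylic acid and abscisic acid genes were called in both directions. Of all tested genes, 27.7% were called higher and 27.2% lower. The shares of the salicylic acid list lay not far above these, and those of the abscisic acid list lay below them. Of 16 salicylic acid genes tested, 6 were lower and 5 higher, with a median of -0.33, which was 0.038 without line 12 replicate 1. PR1, a marker of salicylic acid signalling, stood at 6.75, 31.04 and 4.83 FPKM in WT and 0, 1.05 and 1.53 in line 12 (log2 -2.71, adjusted p = 0.0134), with 1 WT library well above the others. EDS5, which exports the precursor from the plastid, stood at 6.14, 7.53 and 6.601 FPKM in WT and 2.32, 1.75 and 2.15 in line 12 (log2 -1.34). NPR1, the receptor and coactivator, rose and stood at 8.57, 9.93 and 8.63 FPKM in WT and 17.02, 19.8 and 18.7 in line 12 (log2 0.96). The higher count was 3 without WT replicate 1, WT replicate 3 or line 12 replicate 3. Abscisic acid genes also had no common direction, with 4 higher and 4 lower of 19 tested and a median of -0.13; the lower count was 2 without WT replicate 1, and both counts were 2 without line 12 replicates 2 and 3. RD22, a dehydration-induced protein, stood at 482, 423 and 349 FPKM in WT and 109, 126 and 145 in line 12 (log2 -1.71). CYP707A3, which breaks the hormone down, stood at 1.03, 0.949 and 0.915 FPKM in WT and 6.26, 7.21 and 7.99 in line 12 (log2 2.05), and the receptor PYL5 at 11.8, 11.1 and 15.3 FPKM in WT and 37.8, 43.2 and 33.2 in line 12 (log2 1.51).

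Genes of the DNA damage response were higher while replication genes were lower. Of 15 damage genes tested, 10 were higher and 3 lower, with a median of 0.97. NAC044, a factor that stops the cell cycle after damage, stood at 0.499, 0.627 and 0.9599 FPKM in WT and 22.8, 29.1 and 30.2 in line 12 (log2 4.06, SE 0.14, adjusted p = 1.15e-05). SOG1, the master regulator placed above it, stood at 5.96, 6.49 and 5.58 FPKM in WT and 5.21, 4.398 and 4.503 in line 12 (log2 -0.30, adjusted p = 0.0264), so it was slightly lower. GMI1, a repair protein, stood at 1.17, 1.36 and 1.54 FPKM in WT and 8.62, 10.8 and 10.2 in line 12 (log2 2.202), and SMR7, an inhibitor of cyclin-dependent kinases, at 0.636, 1.03 and 1.505 FPKM in WT and 3.71, 7.09 and 6.598 in line 12 (log2 1.71). CYCB1;1, a cyclin that is also induced by damage, stood at 1.19, 1.35 and 0.885 FPKM in WT and 4.41, 7.43 and 6.29 in line 12 (log2 1.70). BRCA1, of repair by recombination, was not called (adjusted p = 0.5800). Of 23 cell cycle and replication genes tested, 15 were lower and 1 higher, with a median of -0.50. The 6 subunits of the MCM helicase changed by -0.89 to -0.69, and MCM7 stood at 8.300, 8.43 and 9.55 FPKM in WT and 4.198, 4.14 and 4.49 in line 12. CYCD3;1, a cyclin of division in young leaves, stood at 11.7, 9.68 and 10.6 FPKM in WT and 5.24, 5.495 and 5.19 in line 12 (log2 -0.88). CDC6, a loading factor of replication, was the member that rose, at 0.972, 1.45 and 1.62 FPKM in WT and 2.73, 3.32 and 2.48 in line 12 (log2 0.71).

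Most chaperone genes were lower in the cytosol and in the endoplasmic reticulum. Of 16 heat shock members tested, 13 were lower and 0 higher at an adjusted p under 0.05, with 0 higher at an unadjusted p under 0.05 in limma, and a median of -1.07; without line 12 replicate 2, 1 member was higher. HSP70-4, an inducible chaperone, stood at 51.3, 57.1 and 53.1 FPKM in WT and 7.15, 7.62 and 10.01 in line 12 (log2 -2.58, SE 0.12, adjusted p = 1.66e-05), and the constitutive HSC70-1 at 802, 816 and 859.5 FPKM in WT and 454, 460.3 and 469.9 in line 12 (log2 -0.84). The small heat shock proteins HSP17.4 and HSP17.6II stood at 6.42, 5.69 and 6.72 FPKM in WT and 0.279, 0.184 and 0.429 in line 12 (log2 -2.49) and at 3.54, 4.68 and 4.43 FPKM in WT and 0.0474, 0.209 and 0.261 in line 12 (log2 -2.15). The table's KEGG term with the name Estrogen signaling pathway, whose called members include HSP70 and HSP90 genes, had 17 of 26 genes lower. Of 16 genes of the unfolded protein response, 11 were lower and 4 higher, with a median of -0.55. The higher members included a chaperone, CNX2, at 16.55, 15.97 and 15.76 FPKM in WT and 25.82, 25.6 and 21.6 in line 12 (log2 0.56). Its relative CNX1 fell (log2 -0.80). BIP2, the lumenal HSP70, stood at 93.1, 103 and 100.2 FPKM in WT and 44.3, 49.95 and 43.97 in line 12 (log2 -1.08). The regulators moved the other way, with BZIP60, the factor spliced in that response, at 27.1, 29.4 and 29.9 FPKM in WT and 74.8, 96.4 and 75.3 in line 12 (log2 1.47) and NAC103, its target, at 1.16, 0.759 and 0.799 FPKM in WT and 2.76, 4.15 and 3.62 in line 12 (log2 1.24).

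Nutrient genes fell for phosphate and divided for iron and sulfur. Their counts are read against the 27.2% of all tested genes called lower and the 27.7% called higher. Of 15 phosphate starvation genes, 9 were lower and 0 higher at an adjusted p under 0.05 (0 higher at an unadjusted p under 0.05), with a median of -1.31. SQD1, which makes sulfolipids that replace phospholipids, stood at 176, 166 and 121 FPKM in WT and 37.4, 42.4 and 43.1 in line 12 (log2 -1.87). IPS1, a noncoding RNA that binds miR399, stood at 122, 80.5 and 26.01 FPKM in WT and 7.21, 12.6 and 17.9 in line 12 (log2 -2.33). SPX3, a repressor of the response, stood at 35.6, 22.6 and 3.95 FPKM in WT and 1.803, 4.200 and 6.17 in line 12 (adjusted p = 0.0824), and its groups overlapped because WT replicate 3 lay within the line 12 range. This list depended on single libraries, with 14 members lower without WT replicate 3 and 5 lower without WT replicate 1 or WT replicate 2. Of 15 iron genes, 8 were lower and 5 higher, with a median of -0.48. NAS4, a nicotianamine synthase, stood at 9.48, 12.9 and 10.6 FPKM in WT and 0.797, 0.862 and 0.813 in line 12 (log2 -2.71), while NAS3, another isoform, stood at 13.8, 13.3 and 6.96 FPKM in WT and 62.8, 102 and 98.3 in line 12 (log2 2.87). The ferritin FER3, which stores iron, stood at 29.04, 26.3 and 26.6 FPKM in WT and 57.8, 65.3 and 60.1 in line 12 (log2 1.13), and BHLH100, a factor of iron deficiency, at 1.69, 3.95 and 2.62 FPKM in WT and 0.0723, 0 and 0 in line 12 (log2 -1.83). Of 13 sulfur genes, 5 were lower and 2 higher, with a median of -0.34, and the lower count was 3 without WT replicate 1, WT replicate 2, line 12 replicate 1 or line 12 replicate 2. APR1, a reductase of activated sulfate, stood at 83.4, 66.98 and 55.2 FPKM in WT and 25.8, 25.7 and 30.4 in line 12 (log2 -1.28), and SDI1, a marker of sulfur deficiency, at 38.4, 23.6 and 12.4 FPKM in WT and 2.43, 2.28 and 6.04 in line 12 (log2 -2.45).

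Some photosynthesis genes were lower by small amounts, and others were not called. Of 28 genes of photosystems and carbon fixation, 13 were lower and 0 higher at an adjusted p under 0.05, with 0 higher at an unadjusted p under 0.05, and the median was -0.26. With no filter on low values 8 were lower, and 2 were higher when libraries were rescaled to nuclear genes other than ribosomal RNA. LHB1B1, the antenna gene that rose (given above), is not a member of this list. DRT112, the plastocyanin, stood at 1821, 1720.0 and 1912 FPKM in WT and 1244, 1157 and 1118 in line 12 (log2 -0.63). LHCB2.1, an antenna protein of photosystem II, stood at 3451, 3384 and 3298 FPKM in WT and 2485, 2392 and 2496 in line 12 (log2 -0.46), while LHCA4, of photosystem I, stood at 4978, 4736 and 5138 FPKM in WT and 5210.0, 4898 and 4623 in line 12 (adjusted p = 0.906). Chlorophyll synthesis had 8 of 11 genes lower and 2 higher, with a median of -0.56. GUN4, an activator of magnesium chelatase, stood at 323, 318 and 317 FPKM in WT and 168, 167 and 173 in line 12 (log2 -0.91), and PORB, a protochlorophyllide reductase, rose and stood at 65.2, 59.4 and 62.6 FPKM in WT and 243, 264 and 203 in line 12 (log2 1.90). The factor GLK1, which drives these genes, stood at 173, 162 and 132 FPKM in WT and 72.6, 79.6 and 89.6 in line 12 (log2 -0.94).

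Growth genes of the wall, water channels, auxin and leaf polarity had more lower than higher members in each list, with some of each. Of 17 wall loosening genes, 9 were lower and 5 higher, with a median of -0.61. EXPA15, an expansin, stood at 27.3, 25.7 and 21.4 FPKM in WT and 5.597, 5.04 and 5.804 in line 12 (log2 -1.99). TCH4, a xyloglucan endotransglucosylase induced by touch, stood at 9.77, 11.3 and 18.8 FPKM in WT and 158, 162 and 135 in line 12 (log2 3.46), and XTH24, of the same family, at 58.5, 61.4 and 61.2 FPKM in WT and 365, 466 and 458 in line 12 (log2 2.80). Of 18 aquaporins, with a median of -0.76, 10 were lower and 1 higher, with 2 higher without WT replicate 3. TIP1;1, of the vacuole membrane, stood at 379, 368 and 385 FPKM in WT and 122, 68.7 and 104 in line 12 (log2 -1.97), and PIP2;1, of the plasma membrane, at 837, 1072 and 1020.0 FPKM in WT and 391, 299 and 365 in line 12 (log2 -1.47). Of 22 auxin genes, 12 were lower and 2 higher, with a median of -0.31. The repressor IAA17 stood at 84.8, 86.5 and 87.2 FPKM in WT and 32.2, 26.1 and 27.98 in line 12 (log2 -1.55). Of 18 genes of leaf polarity and the meristem, with a median of -0.35, 10 were lower and 1 higher, KAN1, which was not called without any one of the 3 WT replicates or line 12 replicates 2 and 3. AS1, a leaf identity factor, stood at 33.1, 31.4 and 33.05 FPKM in WT and 17.5, 16.2 and 18.2 in line 12 (log2 -0.87), and ARF4, of the lower leaf side, at 24.2, 20.2 and 24.6 FPKM in WT and 11.5, 10.8 and 10.9 in line 12 (log2 -0.99).

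Among the factors that act with ABCE2 at the end of translation, the release factor ERF1-1 rose most. The ribosome release and recycling list had 11 members tested, 5 higher and 2 lower, ABCE2 being 1 of the lower ones, with a median of 0.21. ERF1-1, which reads stop codons, stood at 33.9, 34.00 and 33.9 FPKM in WT and 73.3, 100.4 and 91.04 in line 12 (log2 1.34, SE 0.11, adjusted p = 1.32e-04), while ERF1-2 and ERF1-3 changed by 0.22 and 0.21. MCTS1, which removes tRNA from the small subunit, stood at 24.1, 24.3 and 21.8 FPKM in WT and 30.4, 34.02 and 31.5 in line 12 (log2 0.43). PEL1, which recognizes stalled ribosomes, stood at 13.1, 11.6 and 12.2 FPKM in WT and 14.5, 16.1 and 14.5 in line 12 (log2 0.27, adjusted p = 0.0173). The higher count was 3 without WT replicate 1, line 12 replicate 1 or line 12 replicate 2, and 2 without WT replicate 2. EIF3J1, the other lower member (log2 -0.20, adjusted p = 0.03700), was not called without any one of the 3 WT replicates or line 12 replicates 1 and 2, which left ABCE2 as the 1 lower member. HBS1, the partner of PEL1, was not called (log2 -0.18, adjusted p = 0.0556).

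Ribosomal protein genes were slightly lower in about equal measure for both subunits. Of 124 large-subunit genes of the cytosol tested, 58 were lower and 6 higher, with a median of -0.23; 12 were higher when libraries were rescaled to nuclear genes other than ribosomal RNA. Of 90 small-subunit genes, 43 were lower and 7 higher, with a median of -0.23; the higher count was 4 without WT replicate 1 and 2 without line 12 replicates 2 and 3. RPS3B, of the small subunit, stood at 312, 314 and 354 FPKM in WT and 195, 216 and 189 in line 12 (log2 -0.71), and RPL7B, of the large subunit, at 324, 319.7 and 358 FPKM in WT and 206, 225 and 199 in line 12 (log2 -0.67). These families hold near-identical copies, whose reads the authors' counting may have divided. RPS16C stood at 328, 334 and 372 FPKM in WT and 325, 1.096 and 285 in line 12 (adjusted p = 0.277), a loss in 1 library only. Of 44 plastid ribosomal protein genes, 18 were lower and 0 higher at an adjusted p under 0.05 (0 higher at an unadjusted p under 0.05), with a median of -0.19; without line 12 replicates 2 and 3 the lower count was 7. Of 26 ribosome biogenesis genes, with a median of -0.19, 9 were lower and 4 higher; the lower count was 15 without line 12 replicate 2, and the higher count was 2 without WT replicate 1, WT replicate 2, line 12 replicate 1 or line 12 replicate 3. FIB1, the methylase of ribosomal RNA, stood at 189, 201 and 210.4 FPKM in WT and 126, 135 and 121 in line 12 (log2 -0.65). NUC2, a nucleolin, rose and stood at 3.25, 4.03 and 3.27 FPKM in WT and 10.4, 13.2 and 11.7 in line 12 (log2 1.50), while the main nucleolin NUC1 stood at 215, 230.3 and 246 FPKM in WT and 203, 258 and 215 in line 12 (adjusted p = 0.762).

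The medians of the RNA surveillance and silencing lists lay near 0, while single members such as AGO3 and RRP41 changed more. Both lists are read against the 27.7% of all tested genes called higher and the 27.2% called lower. Of 17 genes of mRNA surveillance and decay, 4 were higher and 3 lower, with a median of 0.05; the lower count was 1 without WT replicate 2, line 12 replicate 1 or line 12 replicate 3. UPF1, the helicase of nonsense-mediated decay, stood at 28.8, 29.8 and 29.8 FPKM in WT and 35.4, 39.5 and 38.1 in line 12 (log2 0.34), and RRP41, a core exosome subunit, at 8.69, 8.66 and 10.1 FPKM in WT and 15.6, 15.2 and 15.2 in line 12 (log2 0.69). Of 20 RNA silencing genes, 7 were lower and 5 higher, with a median of -0.08; the lower count was 4 without WT replicate 3 and 3 without line 12 replicates 2 and 3. AGO1, the main effector of miRNAs, stood at 55.1, 60.6 and 61.1 FPKM in WT and 49.6, 45.6 and 47.6 in line 12 (log2 -0.30). AGO3 stood at 0.801, 0.7096 and 0.905 FPKM in WT and 2.56, 2.84 and 2.48 in line 12 (log2 1.01), and AGO2, an effector against viruses, at 4.35, 4.203 and 4.25 FPKM in WT and 6.03, 7.63 and 7.998 in line 12 (log2 0.63). DCL1, which cuts miRNA precursors, stood at 10.6, 10.97 and 11.5 FPKM in WT and 8.06, 7.73 and 7.59 in line 12 (log2 -0.45), while DCL4, which makes 21-base small interfering RNAs, stood at 3.43, 3.92 and 3.55 FPKM in WT and 5.29, 4.798 and 5.22 in line 12 (log2 0.40).

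Counts for genes without a protein product are read against the 27.7% of all tested genes called higher and the 27.2% called lower, and no test between classes was run. Of 157 genes that the table types as snoRNA, guides of ribosomal RNA modification, 60 were higher and 13 lower, with a median of 0.31. Of 256 lncRNA genes, 74 were higher and 25 lower, with a median of 0.14. Of 62 miRNA genes, 7 were higher and 19 lower, with a median of -0.19. The share of lncRNA genes called higher and that of miRNA genes called lower lay near those over all genes. snoRNA genes are short and often lie in other transcripts, so reads of their hosts may count toward them.

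Markers of guard cells, vascular tissue and trichomes had larger shares called lower than the 27.2% of all tested genes, while root markers did not. Most root markers nonetheless had negative log2 changes. At an unadjusted p under 0.05 in limma, 5 of the 12 tested root markers were lower and 1 higher. Root markers with wide spread that were not called included CASP2 (log2 -1.01, SE 0.39) and PRP3 (log2 -0.99, SE 0.65). Of 14 guard cell and stomatal lineage markers, 12 were lower and 1 higher, with a summed level of 886 to 1014 FPKM in WT and 746 to 761 in line 12. Most of that sum came from TGG1, at 734, 651 and 604 FPKM in WT and 482.5, 482 and 495 in line 12, and from GC1. The higher member, GC1, was not called without WT replicate 2, WT replicate 3, line 12 replicate 1 or line 12 replicate 2. TMM, a receptor of stomatal patterning, stood at 15.8, 15.2 and 16.4 FPKM in WT and 6.43, 6.69 and 6.94 in line 12 (log2 -1.13). Of 14 vascular markers tested, 9 were lower and 0 higher at an adjusted p under 0.05 (1 higher, APL, at an unadjusted p under 0.05, and 1 without WT replicate 2), with a summed level of 122 to 142 FPKM in WT and 88.4 to 102 in line 12; without line 12 replicates 2 and 3 the lower count was 4. Of 5 trichome markers tested of 8, 4 were lower, 2 without line 12 replicates 2 and 3, and their summed level was 33.3 to 37.9 FPKM in WT and 28.5 to 31.1 in line 12. Most of the trichome sum came from TTG1, the tested member that was not called. TTG1 stood at 24.4, 21.9 and 24.3 FPKM in WT and 23.97, 22.99 and 25.1 in line 12. Of 12 root markers tested of 18, 3 were lower and 1 higher, with 1 lower without WT replicate 1, WT replicate 2 or line 12 replicate 2. The summed level of root markers was 1459 to 1871 FPKM in WT and 570.5 to 1060.0 in line 12, most of it from PYK10. PYK10, a beta-glucosidase of roots, stood at 1587, 1768 and 1390.0 FPKM in WT and 988, 538 and 905 in line 12 (log2 -1.005), lowest in line 12 replicate 2. EXPA7, of root hairs, stood at 4.95, 5.86 and 2.901 FPKM in WT and 4.47, 0.124 and 3.48 in line 12 (adjusted p = 0.264), again lowest in that library. MYB36, which directs the Casparian strip, rose and stood at 1.26, 2.08 and 1.93 FPKM in WT and 3.96, 2.92 and 3.71 in line 12 (log2 0.72). No seed storage marker passed the filter. The part of these markers in the gene lists above was not tested.

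**Figure D4:**
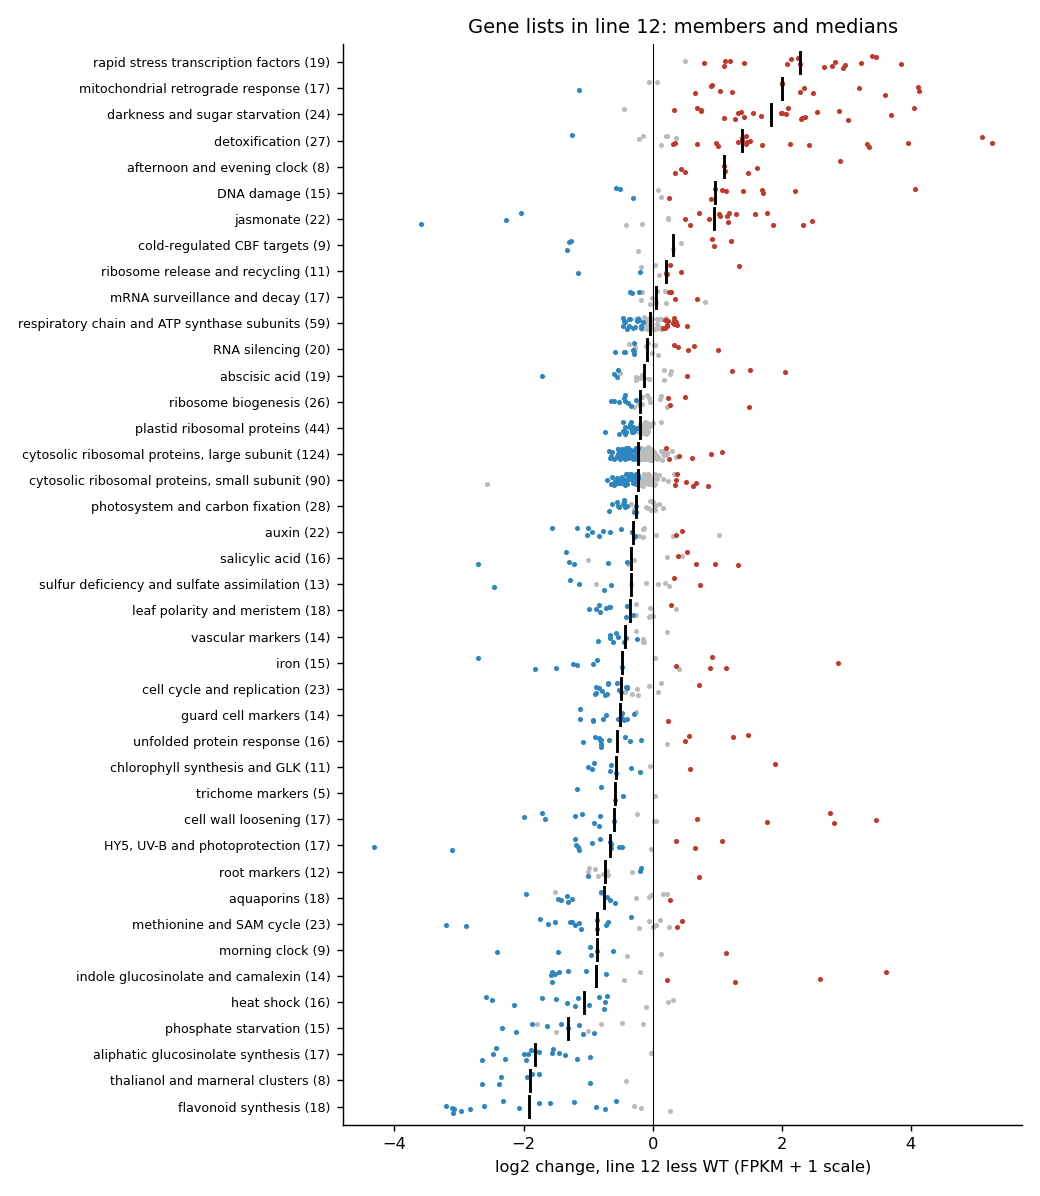
Each point is a tested member of a gene list, placed by its log2 change in line 12, with called members in red (higher) or blue (lower), others in grey, a black bar at the list's median and the number tested in brackets. The medians run from -1.91 for flavonoid synthesis to 2.29 for rapid stress transcription factors.

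The table's own terms gave a few further groups. Among GO and KEGG terms with 15 to 200 tested genes, the highest median was that of response to chitin, at 1.14, with 79 of 105 genes higher and 7 lower. ATL31, a ubiquitin ligase of carbon and nitrogen balance, rose (log2 3.15, adjusted p = 5.68e-05). Cellular response to hypoxia had a median of 0.91, with 9 of 16 genes higher. PLP2, a patatin-like lipase, stood at 1.44, 2.73 and 3.11 FPKM in WT and 18.9, 51.3 and 24.1 in line 12 (log2 3.15), while HSFA2, a heat stress factor in the same term, stood at 1.904, 2.21 and 1.79 FPKM in WT and 0.345, 0.246 and 0.257 in line 12 (log2 -1.21). The term for UDP-glucosyltransferase activity had 11 of 20 genes higher and 4 lower. The wax biosynthetic process had 14 of 21 genes lower and 5 higher. CER2, which lengthens wax chains, stood at 45.8, 40.1 and 48.5 FPKM in WT and 13.2, 13.7 and 13.2 in line 12 (log2 -1.67), and CUT1, a condensing enzyme of wax synthesis, at 218, 186 and 185 FPKM in WT and 81.6, 90.18 and 102 in line 12 (log2 -1.10). The terms overlap with the lists above and with each other.

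ABCE2 was not called between line 12 and line 5, while other genes were. ABCE2 stood at 25 and 26.4 in line 5, and line 12 less line 5 was -0.01 on the log2 scale (adjusted p = 0.919), with a 95% interval from -0.17 to 0.15. In a fit of all 8 libraries, 3624 of 19223 genes (18.9%) differed between the lines, 1754 higher in line 12 (9.12%) and 1870 lower (9.73%). Of the 2143 genes at least 2-fold changed in line 12 against WT, 927 were also called between the lines. Both comparisons use the line 12 libraries, so the counts are not independent. Of genes called between the lines and above the median level, 3 lipid transfer genes had the highest differences. EARLI1 stood at 47.5 and 50.3 in line 5, against 376 to 829 in line 12 (log2 3.57, adjusted p = 4.55e-04). AZI1, its neighbour in the family and a factor of systemic immunity, stood at 122, 99.4 and 92.5 FPKM in WT and 408, 747 and 671 in line 12, against 104 and 83.5 in line 5. AT4G12490, of the same family, stood at 4.98, 28.3 and 4.57 FPKM in WT and 16.7, 65.5 and 44.1 in line 12 and was not called against WT (adjusted p = 0.0668). GSTU24 stood at 8.74 and 13.2 and NAS3 at 17.9 and 16.3 in line 5, and both were lower there than in any line 12 library.

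Other genes were lower in line 12 than in line 5. THI2.2 stood at 38.99 and 43.5 in line 5, overlapping its WT range, against 2.72 to 3.94 in line 12. COR78 stood at 62.9 and 59.2 in line 5, above all WT libraries, while in line 12 it was below them. NFYB2, a subunit of a CCAAT-binding factor, stood at 106, 102 and 92.2 FPKM in WT and 41.5, 38.9 and 36.97 in line 12, and at 158 and 172 in line 5. AT1G61340, an F-box protein, rose in line 12 to 23.7, 14.9 and 17.2 from 1.56, 1.95 and 2.198, and stood at 86.1 and 95.5 in line 5. ATL80, a RING-type ubiquitin ligase, stood at 13.9, 16.5 and 12.2 FPKM in WT and 13.03, 10.6 and 14.1 in line 12 (adjusted p = 0.344), and at 50.2 and 56.1 in line 5. Called changes of at least 2-fold against WT, in opposite directions in the 2 lines, were found for 4 genes. COR78 and GOLS2, a galactinol synthase, were lower in line 12 and higher in line 5, while PYL6, an abscisic acid receptor, and AT2G41230, listed as ORS1, were higher in line 12 and lower in line 5. GOLS2 stood at 11.1, 6.12 and 3.68 FPKM in WT and 2.48, 1.81 and 2.23 in line 12, and at 25.9 and 28.3 in line 5. PYL6 stood at 2.28, 1.69 and 3.400 FPKM in WT and 4.84, 10.8 and 6.21 in line 12, and at 0.768 and 0.539 in line 5. AT2G41230 stood at 2.31, 2.96 and 3.11 FPKM in WT and 7.83, 9.34 and 11.6 in line 12, and at 0.378 and 0.912 in line 5. In the lists, 13 of 19 abscisic acid genes were lower in line 12 than in line 5, among them NCED3, the enzyme that limits synthesis of the hormone (log2 -3.46, adjusted p = 1.50e-04). Detoxification genes were higher in line 12 than in line 5 in 17 of 27 members. The count of genes between the lines rested on single libraries: it was 1384 without line 5 replicate 2, 2052 without line 5 replicate 1 and 2240 without line 12 replicate 3.

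**Figure D5:**
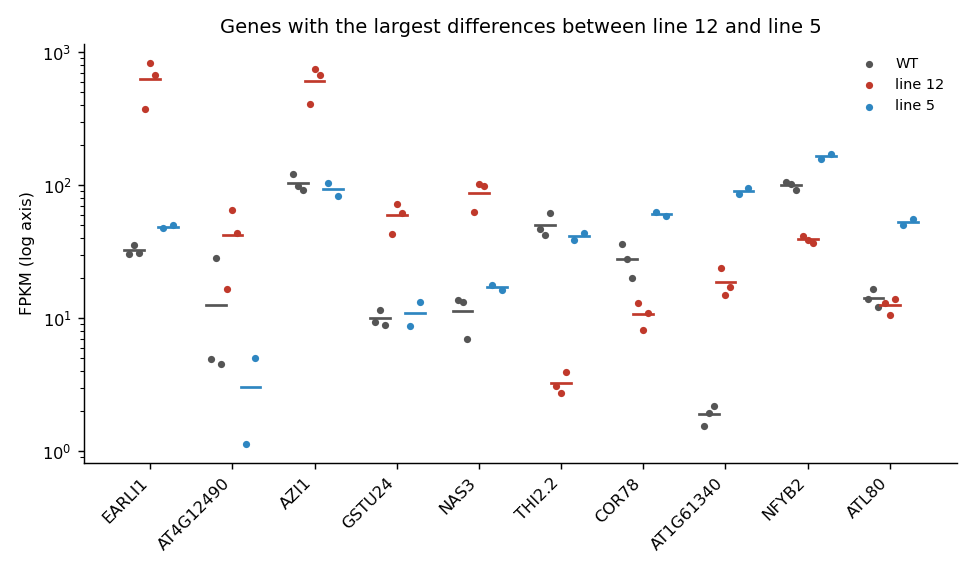
Levels in FPKM on a log axis are shown for the 5 highest and 5 lowest differences between line 12 and line 5 among called genes above the median level, with 1 point per library and a bar at the group mean for WT (grey), line 12 (red) and line 5 (blue). EARLI1, AZI1, GSTU24 and NAS3 lie above both other groups in line 12, and THI2.2 and NFYB2 lie below both.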

How the data were processed

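RNA was taken from whole seedlings, and libraries were made from 1.5 ug of total RNA with a TruSeq RNA kit, per the labels' protocols. HISAT2, StringTie and the genome build TAIR10 are named in the submitters' processing notes; the sources used here do not give versions, the annotation, the counting step or the strand setting. The authors deposited 1 table of values per gene and library, which were read as FPKM because their low values step with gene length as fragments scaled to gene length and library size do. From 84.3% to 85.6% of low values came out as whole reads within 0.01 reads, too few for a test on counts, and the depths given are those implied by these steps. Gene identities came from the table, and 32548 IDs matched RefSeq's TAIR10.1, of which 32520 had identical coordinates.

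Genes with at least 1 FPKM in 2 or more of the 6 WT and line 12 libraries were kept. log2(FPKM + 1) was fitted in limma 3.58.1 (R 4.3.3) with a mean-variance trend and no covariate, and line 12 less line 5 was taken from a fit of all 8 libraries. Tables were made in Python 3.11.15. Promoter windows of 250 bases came from TAIR10.1. The members and lists were chosen with earlier results of these data known. Named genes are the ABCE genes, the 10 highest and 10 lowest changes among called genes above the median level whose groups do not overlap, the 5 largest rises and falls in FPKM, up to 4 called members per list with the largest change, the terms with the 5 highest and 5 lowest medians, the 5 highest and 5 lowest differences between the lines, and the neighbours of ABCE2. Further members named for their role, and windows shown, were chosen after their values were seen. Alternatives changed the pseudocount, filter, scaling, fold minimum, replicate block and the libraries used, and leaving out both ribosomal RNA-rich line 12 libraries was chosen with their shares known.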

Additional observations from a re-analysis of the deposited data

Results flagged for a closer look

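The following genes had different levels in the knockdown lines, by a test of line 12 less line 5 in the limma fit of 8 libraries. Each was higher or lower in all 3 line 12 libraries than in both line 5 libraries. EARLI1 was higher in line 12 by 3.57 on the log2 scale (adjusted p = 4.55e-04), AT4G12490 by 3.39 (adjusted p = 0.0306) and AZI1 by 2.65 (adjusted p = 8.40e-04); all 3 encode lipid transfer proteins. GSTU24 was higher by 2.33 (adjusted p = 0.00118) and NAS3 by 2.26 (adjusted p = 0.00269). THI2.2 had a log2 difference of -3.32 (adjusted p = 1.27e-04), COR78 of -2.43 (adjusted p = 0.00108) and AT1G61340 of -2.25 (adjusted p = 4.63e-04). NFYB2 differed by -2.05 (adjusted p = 1.06e-04) and ATL80 by -2.0 (adjusted p = 3.24e-04). No group had 4 or more libraries, so single libraries were not tested for standing apart.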

How the results depend on the processing

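The count of genes called in line 12 against WT was 10563 and stayed within 1.5 times of that under every alternative run except the 2-fold minimum (764). It was 7053 without both line 12 libraries above 2% ribosomal RNA, and leaving out single replicates gave 8865 to 9880. ABCE2 kept its change of -1.157 on the log2 scale at the 2-fold minimum but was not called there (adjusted p = 0.365). The median log2 change of all genes was -0.0045 as reported, -0.05 with centring and 0.05 with rescaling, and higher genes made up 50.5% of the calls as reported, 44.4% with centring and 58.4% when libraries were rescaled to nuclear genes other than ribosomal RNA. Replicate numbers do not pair the samples: same-numbered WT and line 12 libraries had deviations correlated at -0.128, -0.215 and -0.300, and a fit with the replicate block called 8810 genes. Between line 12 and line 5, 3624 genes were called, 1494 with the replicate block, and 1384 to 3547 when single replicates were left out. The median change of the salicylic acid list turned to 0.0375 without line 12 replicate 1, and single left-out replicates gave -0.503 to 0.0375. With a filter at 5 FPKM, that of the iron list turned to 0.385 and that of trichome markers to 0.0291. Both turned because low members that fell were left out, not because members changed direction. The filter took out IRT1, FIT, BHLH39, BHLH100 and BHLH101 of the iron list. Of the trichome markers it left only TTG1 (log2 0.0291). The respiratory list turned to 0.0295 after rescaling and 0.0107 without line 12 replicate 1, within -0.0556 to 0.0107 over single left-out replicates. The cause of the turns in the salicylic acid and respiratory lists was not tested. Calls of at least 2-fold numbered 2143, and 2975 with a pseudocount of 0.1. The 2-fold minimum lowered the counts of most lists. Depth per library was inferred, and intervals of single values cannot be given.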
